A study of Mus musculus with 4 samples.

Results

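Macrophages of the intestinal muscle coat were followed through 10 marker genes: Csf1, Csf1r, Emr1, C1qa, C1qb, Cd163, Mrc1, Lyve1, Cd14 and Cd68. A probe set belonged to them if its deposited gene symbol was exactly one of these names, which gave 18 of the 45101 probe sets of the arrays and 10 of 20461 genes.

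The study examined mice in which SMCs cannot make mature miRNAs, and asked how the muscle of the gut changes without them. RNA of the jejunal muscularis, stripped of mucosa and submucosa, was hybridised to Affymetrix GeneChip Mouse Genome arrays, with 1 array for each of 2 WT and 2 smDicer KO mice at 3 weeks of age. The smDicer KO mice were smDicer-/-;Cre-GFP/+. In them the promoter of Myh11, the smooth muscle myosin heavy chain gene, drives Cre and eGFP, and floxed Dicer is deleted in SMCs. Macrophages do not express Myh11 and are not the target of Cre. The paper's list of mouse genotypes gives 1 floxed and 1 deleted allele for these mice, while its extended methods write 2 floxed alleles. With the first genotype, cells other than SMCs may carry a deleted allele too. Dicer was not measured in macrophages. The methods state that the smDicer KO mice were female. The WT mice carried functional Dicer in SMCs. The paper's section on tissue preparation names its WT mice as smMHC(Cre-GFP/+). For the single arrays, neither the sex of the WT mice nor whether they carried the Cre-GFP allele is given. Values are RMA log2 intensities, so a difference of 1 is a 2-fold difference, and values under about 6 lie near background. RMA values of different probe sets are not on a common scale, so levels of different genes are not compared. Means and sums over them only chose probe sets or followed a list from array to array. A pair of values stands for replicates 1 and 2 of a group, in this order.

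Dicer1, the targeted gene, read 7.82 and 8.08 in WT and 7.52 and 7.36 in smDicer KO (log2 fold change -0.51, limma adjusted p = 0.271), in a tissue that also holds cells other than SMCs and with probes that may lie outside the deleted part. Over all probe sets the arrays correlated at r = 0.992 within WT, 0.973 within smDicer KO and 0.953 to 0.979 between the groups. All 8 smooth muscle genes that were listed lay well above background in both groups, so the arrays held the labelled tissue. They also held signal of mucosal epithelium genes, with summed log2 values over 13 genes of 71.3 and 91.1 in WT and 125 and 154 in smDicer KO, although the tissue had been stripped of mucosa.

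Muscularis macrophages lie between the muscle layers and around the enteric neurons of the myenteric plexus, and they exchange signals with the neurons. They depend on CSF1, which neurons and other cells of the wall release, and on its receptor CSF1R. Resident macrophages of muscle and other deep tissues are known for scavenger and endocytic receptors (CD163, the mannose receptor MRC1, LYVE1) and for making C1q. Some of them are long-lived, and others are replaced from blood monocytes.

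Both smDicer KO arrays lay above both WT arrays for 6 of the 10 genes (Csf1r, Emr1, C1qa, C1qb, Cd14 and Cd68) and below both for 3 (Cd163, Mrc1 and Lyve1), while the groups overlapped for Csf1. The arrays measure bulk RNA, in which fewer cells of a type and less RNA per cell cannot be told apart. Over all genes, 21.5% lay above in this way and 30.2% below. None of the 10 genes passed an adjusted p of 0.05 in limma, and neither did any other gene (0% of 20461). At an unadjusted p of 0.05 from limma, C1qa and Cd68 were higher and Cd163 was lower, 2 and 1 of 10 genes, where 7.2% of all genes were higher and 10.5% lower. With an array left out a group holds 1 array, and the counts at this p moved over all genes as well as for the members. Those counts are therefore not read as a trait of the members. The counts also turned on the scaling. Cyclic loess between the arrays gave 5 members higher and 1 lower, and it turned the split of all genes from 1473 higher and 2140 lower to 2027 and 1594. The median log2 fold change of the 10 genes was 0.36, against -0.04 for all genes, and it was 0.22 without smDicer KO replicate 1. With 2 arrays a group, an exact two-sided permutation test of a single gene cannot go below p = 0.333.

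**Figure D1:**
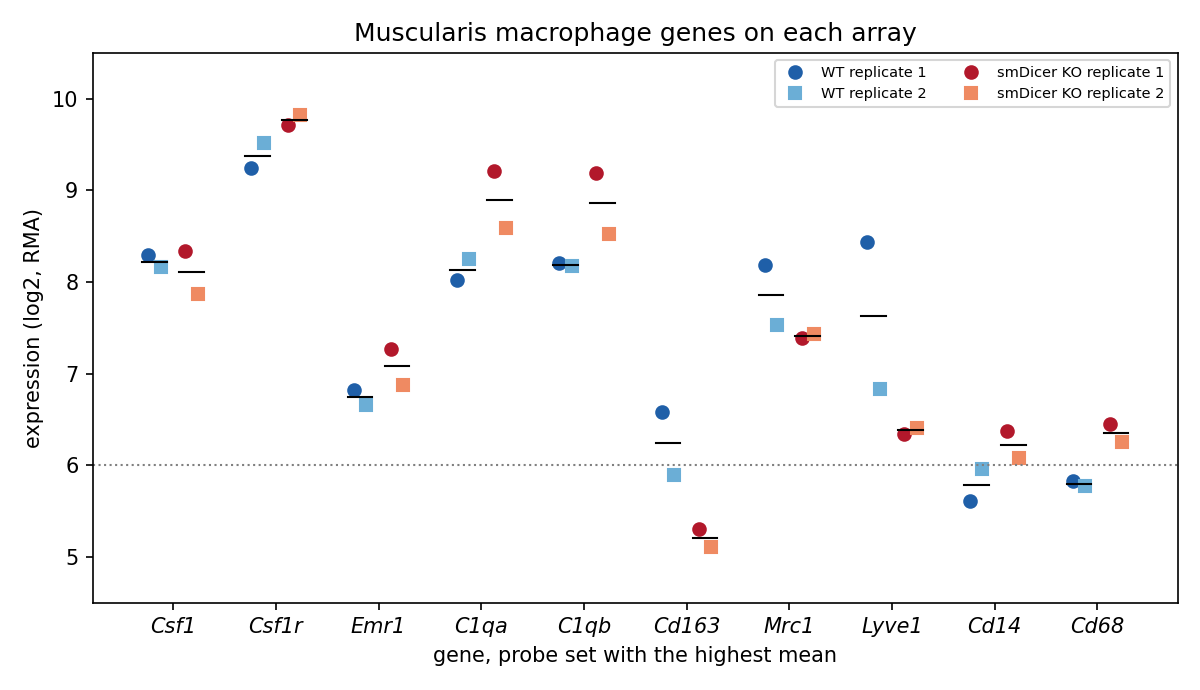
Expression of the 10 macrophage genes on each array. The y axis is the RMA log2 value of the gene's probe set with the highest mean, points are the 2 WT and 2 smDicer KO arrays, black bars are group means, and the dotted line marks 6, under which values lie near background. The red and orange points of Csf1r, Emr1, C1qa, C1qb, Cd14 and Cd68 lie above the blue ones, and those of Cd163, Mrc1 and Lyve1 below.

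Promoters were in the RefSeq sequences for 5 of the 10 genes (GRCm38.p6), as windows of 250 bases before and 50 after the start of the gene. Those of C1qb, Cd68, Cd163 and Mrc1 are shown 5′ to 3′, because these macrophage marker genes differed in direction in the bulk RNA. C1qb (chr4:136886151-136886450, minus strand) and Cd68 (chr11:69666121-69666420, minus strand) were higher on the smDicer KO arrays. Cd163 (chr6:124304401-124304700, plus strand) and Mrc1 (chr2:14229164-14229463, plus strand) were lower. Which cells gave the signal was not tested. Capitals mark matches, on either strand, to GAGGAA, a core bound by PU.1, the ETS factor that macrophage development needs, and to TGCTGA, a core of sites bound by MAF factors.
C1qb: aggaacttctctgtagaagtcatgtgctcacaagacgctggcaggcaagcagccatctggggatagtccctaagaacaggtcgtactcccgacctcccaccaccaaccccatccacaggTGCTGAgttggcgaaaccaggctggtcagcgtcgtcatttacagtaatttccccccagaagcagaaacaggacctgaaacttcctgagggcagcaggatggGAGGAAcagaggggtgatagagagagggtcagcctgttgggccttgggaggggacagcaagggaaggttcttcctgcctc
Cd68: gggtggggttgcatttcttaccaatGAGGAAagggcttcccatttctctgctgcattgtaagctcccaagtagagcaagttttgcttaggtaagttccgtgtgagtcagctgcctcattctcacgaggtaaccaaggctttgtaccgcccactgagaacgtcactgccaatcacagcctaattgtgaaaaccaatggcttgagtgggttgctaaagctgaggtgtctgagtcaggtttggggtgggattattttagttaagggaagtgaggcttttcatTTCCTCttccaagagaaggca
Cd163: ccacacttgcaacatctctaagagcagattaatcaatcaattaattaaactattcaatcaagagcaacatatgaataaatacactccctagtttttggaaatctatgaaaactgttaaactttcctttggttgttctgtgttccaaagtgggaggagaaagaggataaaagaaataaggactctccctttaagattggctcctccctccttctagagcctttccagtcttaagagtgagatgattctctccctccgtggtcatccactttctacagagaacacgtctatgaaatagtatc
Mrc1: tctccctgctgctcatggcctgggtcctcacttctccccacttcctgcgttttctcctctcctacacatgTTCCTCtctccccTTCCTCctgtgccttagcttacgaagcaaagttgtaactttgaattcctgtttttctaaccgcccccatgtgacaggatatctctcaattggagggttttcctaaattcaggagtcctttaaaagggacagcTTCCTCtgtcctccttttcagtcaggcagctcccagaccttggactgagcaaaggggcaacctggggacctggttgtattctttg
GAGGAA or its reverse complement was found 1 time for C1qb, 2 times for Cd68, 3 times for Mrc1 and 0 times for Cd163. It occurred in 28.3% of 32851 promoter windows of the same length. TGCTGA or its reverse complement was found 1 time for C1qb and 0 times for the others, and it occurred in 19.5% of all windows. The promoter of Csf1, the remaining gene with a window, held neither. The C1qb window had 56.3% G and C bases and the Cd163 window 38%. The motifs did not divide the genes by the direction of their difference, and a match is only a description of the letters.

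The ligand and receptor of the CSF1 axis were measured first. Csf1, which encodes the growth factor on which these macrophages depend, read 8.29 and 8.16 in WT and 8.34 and 7.87 in smDicer KO. The groups overlapped, and the log2 fold change was -0.12 (SE 0.20, adjusted p = 0.822, where SE is the standard error from limma). Its 3 further probe sets also overlapped, with log2 fold changes of -0.06, -0.06 and 0.03. No difference in the ligand was detectable with these arrays. Il34, named after its value was seen and encoding the other ligand of CSF1R, lay near background on all arrays, from 4.17 to 4.27.

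Csf1r, the receptor tyrosine kinase for CSF1 and the gene that defines the mononuclear phagocyte lineage, read 9.24 and 9.52 in WT and 9.71 and 9.82 in smDicer KO. Both smDicer KO arrays were higher, by 0.39 on the log2 scale or 1.31-fold (limma SE 0.15, adjusted p = 0.33), or by 0.25 with WT replicate 1 left out and 0.22 over the mean of its probe sets. Its other probe sets gave smaller differences: the second had a log2 fold change of 0.17 with groups that did not overlap, and the third one of 0.10 with groups that did. The 3 probe sets thus differed in the size of the difference. The third did not separate the groups, and the second barely did. Emr1, which encodes the surface antigen most used to stain mouse macrophages, read 6.82 and 6.66 in WT and 7.27 and 6.88 in smDicer KO. The difference was 0.34 (SE 0.18, adjusted p = 0.437 from limma), or 0.14 when smDicer KO replicate 1 was left out and 0.53 when replicate 2 was.

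**Figure D2:**
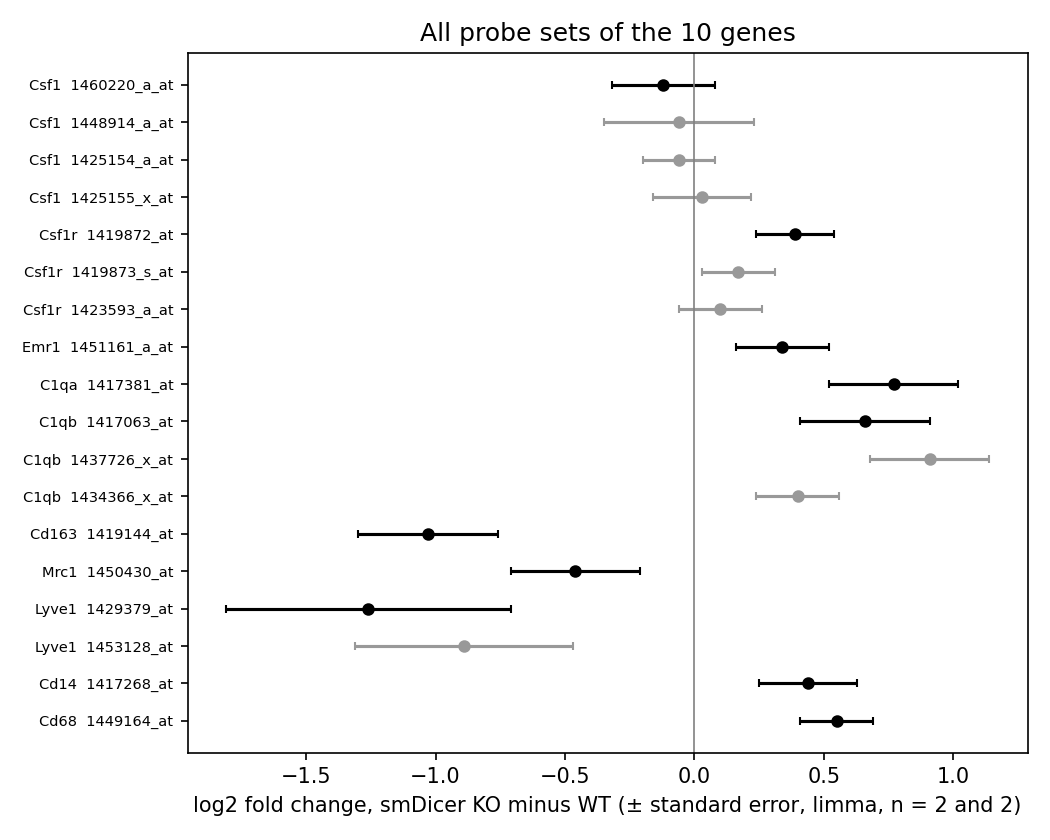
Log2 fold change of every probe set of the 10 genes. Points are smDicer KO minus WT, bars are 1 standard error from limma (n = 2 and 2), and black marks the probe set that represents its gene. All probe sets of C1qb lie to the right of 0 and both of Lyve1 to the left, while those of Csf1 lie around 0.

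The 17 genes of the CSF1 axis and the macrophage lineage factors that were listed for this tissue include Csf1 and Csf1r, and all 17 were measured. At an unadjusted p of 0.05 from limma 5 were higher and 0 lower, none of them a member. Both smDicer KO arrays lay above WT for 12 and below for 0. Over all genes 7.2% were higher and 10.5% lower at this p, and 21.5% lay above and 30.2% below. The counts of the later lists stand beside the same shares. The median log2 fold change of the 17 was 0.39. Maf, a transcription factor of mature resident macrophages, read 9.01 and 8.78 in WT and 9.55 and 10.62 in smDicer KO, and the log2 fold change was 1.19 (SE 0.38, limma adjusted p = 0.279). For Maf, smDicer KO replicate 2 stood well above replicate 1, and without it the difference was 0.65. Mucosal epithelium genes, mentioned above, were also higher on smDicer KO replicate 2 than on replicate 1, and their part in these values was not tested. Tyrobp, the signalling adaptor of myeloid receptors, read 7.82 and 7.65 in WT and 8.41 and 8.28 in smDicer KO (log2 fold change 0.61).

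C1qa and C1qb, with C1qc, encode the chains of C1q, which opens the classical complement pathway, and lie next to each other in the mouse genome. C1qa read 8.02 and 8.25 in WT and 9.21 and 8.59 in smDicer KO. The means were 8.13 ± 0.16 and 8.90 ± 0.44 (SD, n = 2), a 1.7-fold difference (log2 fold change 0.77, SE 0.25, limma adjusted p = 0.281). C1qb read 8.21 and 8.18 in WT and 9.19 and 8.52 in smDicer KO, and the log2 fold change was 0.66 (SE 0.25, limma adjusted p = 0.319). In both genes the WT arrays were close together and smDicer KO replicate 1 was the highest. Without that array the differences were 0.46 for C1qa and 0.33 for C1qb, and without smDicer KO replicate 2 they were 1.08 and 1.0. The further probe sets of C1qb also had both smDicer KO arrays above WT, with log2 fold changes of 0.91 and 0.40, though the probes of an x_at set can match other transcripts. C1qc, named after its values were seen, ran the same way: 8.01 and 7.79 in WT, 8.58 and 8.25 in smDicer KO, which is a log2 difference of 0.51 (SE 0.18, limma adjusted p = 0.295). Thus all 3 chains lay above WT on both smDicer KO arrays, with replicate 1 above replicate 2 each time.

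Of 18 genes listed for the classical complement pathway and its receptors, 14 were measured. At an unadjusted p of 0.05 from limma 6 were higher and 0 lower. Over the 14 the median was 0.53 on the log2 scale, and over the 12 that are not members it was 0.45. C3, the central component, was 0.38 higher with groups that overlapped, or 0.08 higher with smDicer KO replicate 1 left out and 0.67 with replicate 2 left out. Cfb, the protease of the alternative pathway that amplifies C3 cleavage, read 7.72 and 7.27 in WT and 9.04 and 8.25 in smDicer KO (log2 fold change 1.16, limma adjusted p = 0.256). C3ar1, the receptor for the C3a fragment, read 5.15 and 5.06 in WT, near background, and 6.55 and 5.75 in smDicer KO (log2 fold change 1.05). With smDicer KO replicate 1 left out Cfb differed by 0.76 and C3ar1 by 0.65. C1qbp, whose mitochondrial product also binds C1q, had a log2 fold change of -0.13 with groups that overlapped. Interferon-induced genes ran with this group: 7 of 13 were higher at an unadjusted p of 0.05 from limma and 0 lower, and their summed log2 values were 84.3 and 85.3 in WT and 125 and 97.8 in smDicer KO, again with replicate 1 the highest. The part of interferon in the complement values was not tested.

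Both smDicer KO arrays lay below WT for the 3 scavenger and endocytic receptors among the members, of which Cd163 alone passed an unadjusted p of 0.05 from limma. Cd163, the receptor for haptoglobin-bound haemoglobin, read 6.58 and 5.89 in WT and 5.30 and 5.11 in smDicer KO. The means were 6.24 ± 0.49 and 5.20 ± 0.13 (SD, n = 2), and the log2 fold change of -1.03 (SE 0.27, limma adjusted p = 0.245) is a 2.05-fold lower level. The smDicer KO values and that of WT replicate 2 lie under 6, near background, where RMA values flatten. The size of that fold is therefore uncertain. Lyve1, a hyaluronan receptor of perivascular and muscle-coat macrophages and of lymphatic endothelium, read 8.44 and 6.83 in WT and 6.34 and 6.41 in smDicer KO. Its log2 fold change was -1.26 (SE 0.55, limma adjusted p = 0.362). The WT arrays lay much farther apart than the smDicer KO arrays, and leaving out WT replicate 1 gave a difference of -0.45 where leaving out WT replicate 2 gave -2.07. The other probe set of Lyve1 read 6.57 and 5.36 in WT and 5.03 and 5.14 in smDicer KO, with the same WT array high.

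Mrc1, the mannose receptor CD206 that takes up glycoproteins and marks resident macrophages of connective tissue, read 8.19 and 7.53 in WT and 7.39 and 7.43 in smDicer KO. The log2 fold change was -0.46 (SE 0.25, limma adjusted p = 0.439), or -0.13 with WT replicate 1 left out and -0.79 with WT replicate 2 left out. For Cd163 these values were -0.69 and -1.38. WT replicate 1 was the highest array for all 3 receptors, and in Mrc1 WT replicate 2 differed little from the smDicer KO arrays.

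Lymphatic endothelium also expresses Lyve1, and its listed markers were read on the same arrays. Of its 8 listed genes, Lyve1 included, 7 were measured, and 5 lay near background in both groups. At an unadjusted p of 0.05 from limma 0 were higher and 1 was lower, with or without Lyve1. The lower gene was Stab2, which is also on the list of scavenger and endocytic receptors below and is counted in both. The summed log2 value of the 7, Lyve1 included, was 44.2 and 39 in WT and 37.6 and 39.6 in smDicer KO. Without Lyve1 the median log2 fold change of the other 6 was -0.26. Prox1, its defining factor, lay between 2.30 and 2.76 on all arrays. Prox1, Mmrn1, Reln, Stab2 and Flt4 were named after their values were seen. Mmrn1 and Reln read 6.80 and 6.47 on WT replicate 1 and 4.89 and 5.16 on WT replicate 2, and so shared the high array with Lyve1. On the smDicer KO arrays they read 4.64 and 4.59 and then 5.62 and 6.22, while Lyve1 was alike on both. The part of lymphatic vessels in the values of Lyve1, Mrc1 and Cd163 was not tested.

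Of 25 listed scavenger and endocytic receptors and related genes of resident macrophages 24 were measured, 12 of them near background in both groups. At an unadjusted p of 0.05 from limma 7 were lower and 2 higher, and both smDicer KO arrays lay below WT for 11 and above for 4. Without Cd163, Mrc1 and Lyve1 the counts at this p were 6 lower and 2 higher of 21, where 10.5% and 7.2% of all genes were. Both smDicer KO arrays lay below WT for 8 of the 21 and above for 4, where 30.2% and 21.5% of all genes did. The median log2 fold change of the 21 was -0.04, equal to that of all genes. Cbr2, a carbonyl reductase, read 6.96 and 6.42 in WT and 5.55 and 5.93 in smDicer KO (log2 fold change -0.94, SE 0.25, limma adjusted p = 0.251). The other lower genes, named after their values were seen, were F13a1, Folr2, Mgl2, Stab2 and Cd209g. F13a1, the A chain of coagulation factor XIII, read 7.83 and 7.29 in WT and 6.60 and 6.78 in smDicer KO (log2 fold change -0.87). Folr2, a folate receptor of resident macrophages, had a log2 fold change of -0.59 and the lectin gene Mgl2 one of -0.68. The hyaluronan receptor gene Stab2, the lower gene of the lymphatic list too, had one of -0.90. All of these had values near background. Cd209g, a lectin gene, read no more than 4.10 on any array, so its difference of -0.73 lies within the background range.

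Other receptors of this list did not follow. Clec7a, the receptor for fungal beta-glucans, read 5.20 and 5.6 in WT and 6.66 and 6.60 in smDicer KO, higher by 1.24 (SE 0.18, limma adjusted p = 0.215). Cd36, the fatty acid and lipoprotein receptor and the other gene higher at an unadjusted p of 0.05 from limma, was named after its values were seen and had a log2 fold change of 0.50. Axl, a receptor for phosphatidylserine bridging proteins, and Scarb2, a lysosomal membrane receptor, had log2 fold changes of -0.04 and 0.18 with groups that overlapped.

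**Figure D3:**
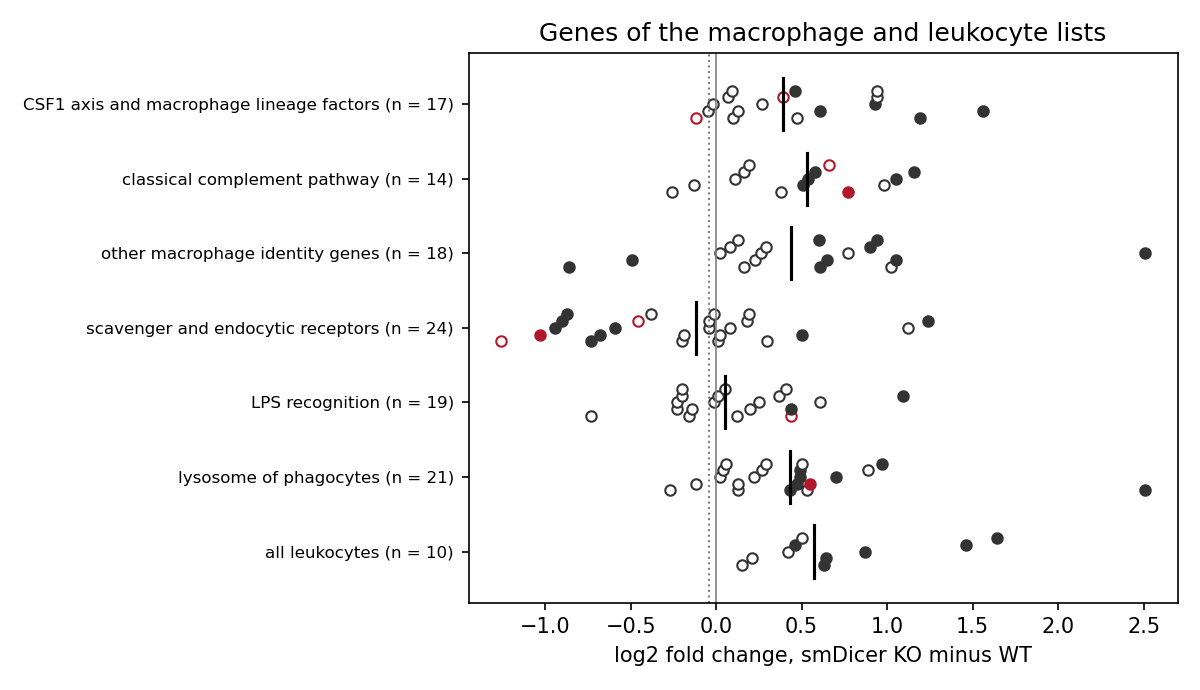
Log2 fold change of each measured gene of 7 lists. The x axis is smDicer KO minus WT, filled points have an unadjusted p under 0.05 in limma, red points are members, vertical bars are list medians, and the dotted line is the median of all genes, -0.04. Filled points lie only to the right in the CSF1 axis, complement, lysosome, LPS and leukocyte lists, and on both sides in the scavenger receptor and macrophage identity lists.

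Cd14 and Cd68 were read near background in WT. Cd14, the co-receptor that hands LPS to TLR4, read 5.61 and 5.96 in WT and 6.37 and 6.08 in smDicer KO. The log2 fold change was 0.44 (SE 0.19, limma adjusted p = 0.364), or 0.26 with WT replicate 1 left out and 0.29 with smDicer KO replicate 1 left out. Of 20 listed genes of LPS recognition 19 were measured. Among the 18 other than Cd14, 2 were higher and 0 lower at an unadjusted p of 0.05 from limma, with a median log2 difference of 0.03. These were Cd180 and Il6, named after their values were seen, and both lay below 6 on all arrays. Tlr4, the LPS receptor itself, and its partner Ly96, also named after their values were seen, had log2 fold changes of -0.73 and -0.14, with groups that overlapped. That of Tlr4 was -0.11 with smDicer KO replicate 2 left out, -1.35 with replicate 1 left out and -0.27 over all its probe sets. Nfkbia and Irak1, which act downstream, had log2 fold changes of 0.41 and -0.23, also with overlap.

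Cd68, a lysosomal glycoprotein of phagocytes, read 5.83 and 5.77 in WT and 6.45 and 6.25 in smDicer KO. The means were 5.80 ± 0.04 and 6.35 ± 0.14 (SD, n = 2), a 1.47-fold difference (log2 fold change 0.55, SE 0.14, limma adjusted p = 0.242). With each array left out in turn it stayed between 0.45 and 0.65, the narrowest range of the 10 genes. All 21 listed lysosomal genes of phagocytes were measured. Among the 20 other than Cd68, 7 were higher and 0 lower at an unadjusted p of 0.05 from limma, 11 lay above WT on both smDicer KO arrays and 0 below, and the median was 0.36. Ctss, the cathepsin of antigen-presenting cells, read 8.01 and 8.23 in WT and 10.28 and 10.98 in smDicer KO, a 5.7-fold difference (log2 fold change 2.51, SE 0.27, limma adjusted p = 0.215). Without smDicer KO replicate 1 its adjusted p from limma was 0.0438, and those of the members stayed above 0.05. Ctsc, which activates the serine proteases of leukocytes, had a log2 fold change of 0.97, or 0.63 with smDicer KO replicate 2 left out and 0.58 over all its probe sets. Ctss and Ctsc were highest on smDicer KO replicate 2, unlike Cd68. Lamp1, found on the lysosomes of all cells, was 0.29 higher, and Cst3, a secreted cathepsin inhibitor, 0.06 higher with overlap.

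Further genes that identify macrophages also lay on both sides. Of 20 listed 18 were measured, and 7 were higher and 2 lower at an unadjusted p of 0.05 from limma, with a median of 0.44. Mpeg1, the pore-forming perforin-2 of macrophages, read 5.55 and 5.95 in WT and 8.52 and 8.0 in smDicer KO, a 5.7-fold difference (log2 fold change 2.51, SE 0.25, limma adjusted p = 0.215). Apoe, the lipid carrier made by macrophages, glia and other cells, had a log2 fold change of 0.94. Pf4, a chemokine of platelets that resident macrophages also express, read 8.78 and 8.27 in WT and 7.52 and 7.81 in smDicer KO, which is a log2 difference of -0.86 (SE 0.23, limma adjusted p = 0.25). Fcrls, an Fc receptor-like scavenger gene of resident macrophages in mice, was named after its values were seen and was the other lower gene, at -0.49. Over the 6 macrophage lists joined, without the 10 members, 26 of 101 genes were higher and 8 lower at an unadjusted p of 0.05 from limma, and both smDicer KO arrays lay above WT for 48 and below for 14. Over all genes 7.2% were higher and 10.5% lower at this p, and 21.5% lay above and 30.2% below. The median of the 101 was 0.19. With either WT array left out the counts of the 101 at this p fell, as they did over all genes.

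The pattern of Csf1r over the 4 arrays was set against that of every gene with a mean of at least 6, after each gene's mean was subtracted. The nearest of 10747 genes by Euclidean distance were 1200011I18Rik (0.031 log2 units), Stard3 (0.0593), Fgf1 (0.072), Rac2 (0.0732) and 2600009E05Rik (0.0808), and of these Rac2, a GTPase of blood cells, is a leukocyte gene. Among the members Cd14 ranked 685 and Cd68 1333, C1qa and C1qb ranked 5345 and 5462, and Mrc1 and Lyve1 ranked 9219 and 10455. Cd163 had a mean under 6 and was not ranked. With 4 arrays such a distance describes them and no more, and the members did not share one profile.

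Genes of other cells were read on the same arrays. All 10 leukocyte genes lay above WT on both smDicer KO arrays, 6 of them at an unadjusted p of 0.05 from limma, with summed log2 values of 62.9 and 63.1 in WT and 71.2 and 68.7 in smDicer KO. Ptprc, which encodes the pan-leukocyte antigen CD45, read 6.0 and 5.86 in WT and 7.42 and 7.36 in smDicer KO (log2 fold change 1.46, 2.75-fold, limma adjusted p = 0.215). The mean over all probe sets of Ptprc gave a smaller difference, 0.76 on the log2 scale. Genes of monocytes (1 of 8 higher), dendritic cells (1 of 9), neutrophils (0 of 8), T and NK cells (1 of 9), B and plasma cells (1 of 6 higher, 1 lower) and mast cells (0 of 5) gave few calls at this p, and most of those genes lay near background in both groups. Mucosal epithelium genes were higher at this p in 12 of 13, with only 1 of the 13 near background in both groups and smDicer KO replicate 2 above replicate 1. Enteric neuron genes were higher at this p in 6 of 10, with replicate 1 above replicate 2, and smooth muscle genes were lower in 1 of 8. The part of leukocytes, mucosa and neurons in the macrophage values was not tested.

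**Figure D4:**
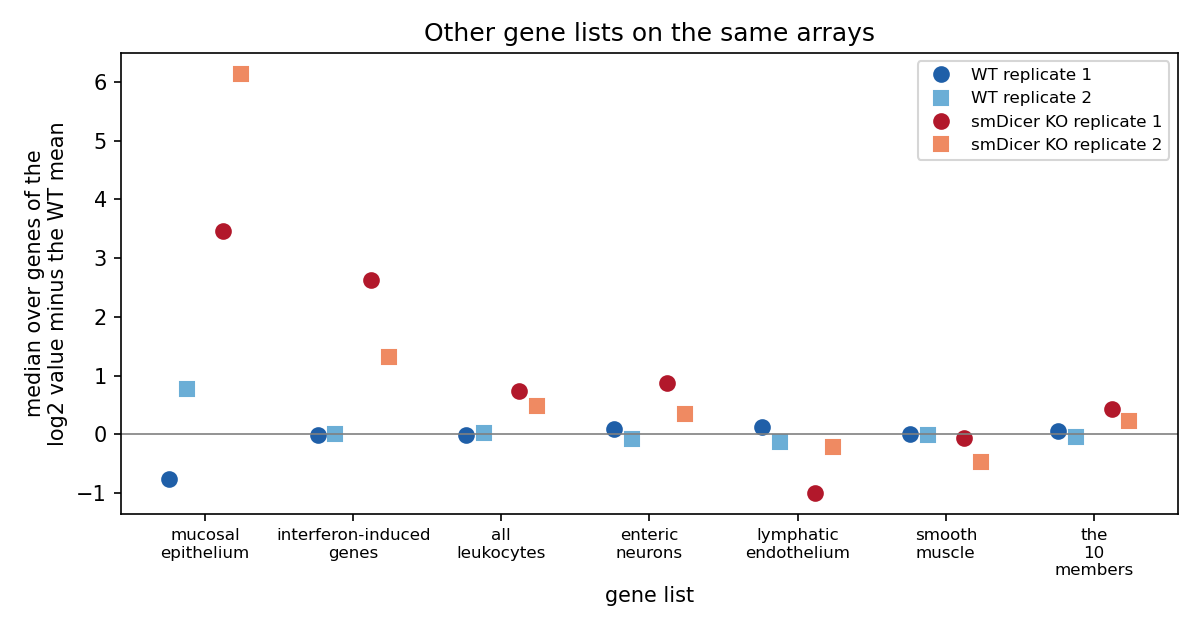
Level of 6 further gene lists and of the 10 members on each array. The y axis is the median over a list's genes of the log2 value minus the gene's WT mean. The 10 members sit at 0.05 and -0.05 in WT and at 0.43 and 0.22 in smDicer KO, where mucosal epithelium sits at 3.47 and 6.14 and the interferon-induced genes at 2.63 and 1.31.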

How the data were processed

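Total RNA of the jejunal muscularis of 2 WT and 2 smDicer KO mice was hybridised to 1 array each. The authors had the arrays normalized by RMA in Omicsoft Array Studio, whose version is not given in the sources used here, and deposited 1 log2 value for each probe set and array. Their deposited fold changes, p-values and gene list were not used. The genome build behind the array annotation is not given in the sources used here, and no coordinates were taken from it.

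No further normalization was applied to the deposited log2 values. smDicer KO was compared with WT by lmFit and eBayes at default settings (limma 3.58.1, R 4.3.3), after the code was tested on simulated data. p-values were adjusted by Benjamini-Hochberg over all 45101 probe sets. Of a gene's probe sets, among the 36804 with 1 symbol, the one with the highest mean stood for it. Python 3.11.15 with pandas 2.3.3 and numpy 2.4.6 gave the tables, and matplotlib 3.10.9 the figures.

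The members and the 20 gene lists were chosen with earlier results of these data known, and 18 listed genes had no probe set with a single symbol. The text names all members, Dicer1, in a list the 2 genes with the highest mean and up to 3 with the largest difference (unadjusted p under 0.05, higher group at a mean of 6 or more), and the 5 genes nearest to Csf1r. Genes outside this rule are marked as named after their values were seen. Some genes that the rule names are not reported here.

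The labels number the 2 arrays of a group as replicates, and the methods name 2 mice a group. p-values measure only the spread between these arrays. Precision is limited by having 4 arrays. The alternatives were a filter on low values, median centring, cyclic loess, eBayes with trend and robust, an unmoderated model, the mean over a gene's probe sets, the replicate number as a block, and each array left out in turn. A fit without 1 array has 1 residual degree of freedom and assumes that the lone array varies like those of the other group.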

Additional observations from a re-analysis of the deposited data

How the results depend on the processing

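No member gene reached an adjusted p of 0.05 in limma under any of the 11 alternatives, and the members kept the direction of their difference under all of them except Csf1, which ranged from -0.35 to 0.12 with an array left out. Of 811 values under the alternatives 742 stayed on their side of the threshold or within 1.5 times or 1 SD of the reported value. No gene was called in the main fit, so for single genes this outcome was close to fixed. It does not show that their differences kept their size. Lyve1, at -0.45 and -2.07 with a WT array left out against -1.26, is among the 742. Sign changes were counted for 10 values, leaving out those of list medians no larger than 1 SD.

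The 7126 probe sets at an unadjusted p of 0.05 became 4535 in the unmoderated model, 4377 with the filter on low values and 2249 to 9801 with an array left out, and the 0 probe sets called at an adjusted p became up to 378. The members higher at an unadjusted p, 2, became 1 in the unmoderated model, 5 with cyclic loess and 0 to 4 with an array left out. The members lower, 1, became 0 in the unmoderated model, 0 with the filter, which removed Cd163, and 0 to 3. The median of the members ranged from 0.22 to 0.43, and Dicer1 from -0.64 to -0.37. Of the genes in the macrophage lists, 26 higher became 14 in the unmoderated model and 5 to 31 with an array left out, 8 lower became 5 in the unmoderated model, 4 with the filter and 3 to 7, and those called, 0, ranged from 0 to 1, which was Ctss at 2.86 without smDicer KO replicate 1 (adjusted p from limma 0.0438). With the filter the 26 higher genes of the macrophage lists became 18. The median of LPS recognition was -0.01 with the filter and ranged from -0.02 to 0.12. That of lymphatic endothelium ranged from -1.0 to 0.24. Axl was 0.08 with cyclic loess. With an array left out Axl ranged up to 0.27, C1qbp from -0.30 to 0.03, Cst3 from -0.23 to 0.34 and Nfkbia from -0.12 to 0.94. Apart from the removal of Cd163 by the filter, the cause was not tested.

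The WT and smDicer KO arrays share replicate numbers, which the labels do not call a pairing, and the deviations of same-numbered arrays from their group means correlated at 0.251 over 2 pairs. With the replicate number as a block, 6683 probe sets had an unadjusted p under 0.05, 0 members were called and their median was 0.36. The unadjusted p from limma became 0.0547 for C1qa, 0.0468 for C1qb and 0.054 for Dicer1, against 0.0323, 0.0516 and 0.0272 without the block, so C1qb took the place of C1qa among the 2 members higher.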
